A study of Saccharomyces cerevisiae with 12 samples.

Results

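The 37 ATG genes of budding yeast, Saccharomyces cerevisiae, were examined in 4 strains of a study of the chromatin remodelling complex SWI/SNF. The deposited expression table lists genes by systematic name. A gene in it was taken as a member when its standard name in the R64 annotation was ATG followed by a number, and this rule picked 37 of 5935 genes. All 37 genes that the R64 annotation names in this way were in the table, and all 37 passed the filter on low values. VPS30 and SNX4, which have the ATG-numbered synonyms ATG6 and ATG24, were not members. RNA was sequenced from 3 cultures each of strains lacking SNF5, SNF2 or SWP82 and of a wild type. Every strain was BY4741, MATa, with the markers his3Δ1 leu2Δ0 met15Δ0 ura3Δ0, and was grown at 30 °C to an OD600 of 0.75 to 1.0, which is log phase. None of the cultures analysed here was labelled as starved. By its labels, each deletion strain had the gene replaced by kanMX4 and a FLAG tag with LEU2 on Snf6. The wild type was labelled as carrying the FLAG tag with LEU2 on Snf2. The LEU2 reads, given below, went against these labels in the snf2 and swp82 deletions. The labelled tag position, kanMX4 and the deletion go together in every comparison with the wild type and cannot be told apart.

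Macroautophagy encloses cytoplasm in a double membrane, the autophagosome, which fuses with the vacuole so that its contents are broken down. In yeast it is strongly induced by starvation, while a constitutive branch, the Cvt pathway, delivers the hydrolase Ape1 to the vacuole in growing cells. The ATG products act as a kinase complex that starts the process, a lipid kinase complex, vesicles and lipid transfer proteins that supply membrane, 2 ubiquitin-like conjugation systems, receptors that pick cargo, and vacuolar proteins that complete the breakdown. SWI/SNF slides and evicts nucleosomes with the ATPase Snf2, Snf5 is a core subunit, and Swp82 is an accessory subunit. Transcription of ATG8 and other ATG genes is known to be held down in rich medium by repressors such as Ume6.

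The libraries held 9012746 to 12875057 reads, and values are given as scaled CPM, the deposited values, which are counts per library total (CPM) divided by a library scaling factor. 1 read was worth 0.0801 to 0.118 scaled CPM. SNF5 averaged 0.0611 scaled CPM in the snf5 deletion against 99.4 in the wild type, SNF2 averaged 0.649 in the snf2 deletion against 97.6, and SWP82 had 0 reads in the swp82 deletion against a mean of 59.8, so the labelled deletions held. LEU2 had 0 reads in the snf2 and swp82 deletions, against 74.7 ± 16.1 scaled CPM in the snf5 deletion and 56.2 ± 0.869 in the wild type (SD, n = 3), while the labels give a LEU2-marked tag to all 4 strains. Whether the snf2 and swp82 deletion strains carried the tag was not tested, and LEU2 status goes with some comparisons. Of the MATa markers, STE2, MFA1, MFA2, BAR1 and AGA2 averaged between 127 and 1135 scaled CPM in every group. Of the MATalpha markers, STE3, MF(ALPHA)1 and MF(ALPHA)2 averaged at most 12.7 and SAG1 averaged 74.0 to 79.0. The snf5 deletion replicates 1 and 3 were the least alike pair within a group, with a correlation of log2 values across genes of 0.975 against 0.990 to 0.998 for the other pairs.

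Levels of different genes were compared per kb of coding sequence. In the wild type the median ATG gene stood at 22.1 scaled CPM per kb, against 54.4 for all 5684 genes with a coding length. ATG27, which encodes a membrane protein of Atg9 vesicles, was the highest member at 179 ± 3.60 (SD, n = 3). ATG44, for a mitochondrial fission factor, ATG41, for an Atg9-binding protein, and ATG33, for a mitochondrial outer membrane protein used in mitophagy, followed at 118, 116 and 106 scaled CPM per kb. The ubiquitin-like protein gene ATG8 ranked 8 of 37 at 45.2 scaled CPM per kb. The lowest members were ATG10, for an E2-like enzyme, at 7.42, ATG9, for the membrane scramblase, at 6.93, and ATG39 at 2.87 scaled CPM per kb. ATG39 had 291 reads over the 3 snf5 deletion libraries, 339 over the snf2, 40 over the swp82 and 116 over the wild-type libraries, the fewest in a single library being 6.

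**Figure D1:**
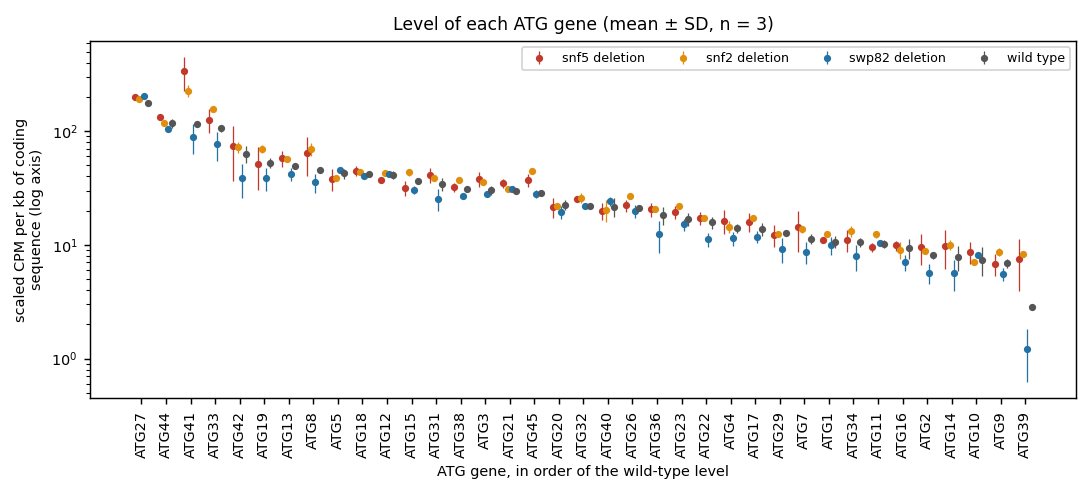
Level of each of the 37 ATG genes in scaled CPM per kb of coding sequence (log axis), as mean ± SD of 3 libraries in the snf5, snf2 and swp82 deletions and the wild type, in order of the wild-type level. ATG27 stood highest at 179 and ATG39 lowest at 2.87 in the wild type.

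Whether any of the 4 strains differed was tested with a moderated F test in limma, a linear model fitted to log2(value + 1) of all 12 libraries, with Benjamini-Hochberg adjustment over 5820 genes. An adjusted p under 0.05 was reached by 22 of 37 ATG genes, against 50.3% of all genes tested. That number was 12 without swp82 deletion replicate 2, 11 without swp82 deletion replicate 3 and 13 without snf2 deletion replicate 3. Calls over all genes in these 3 F tests were not counted. In the same fits the snf2 against swp82 deletion comparison called 1786, 1957 and 1839 of all genes, against 2533 with all 12 libraries. The swp82 deletion had the lowest mean for 30 of 37 ATG genes (81.1%), against 30.3% of all genes. The snf2 deletion had the highest mean for 19 (51.4%) and the snf5 deletion for 13 (35.1%) of the 37, against 25.6% and 24.5% of all genes. The swp82 deletion was lowest with the snf2 or snf5 deletion highest for 28 of 37 (75.7%), against 26.5% of all genes. These counts describe the means and are not tests.

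The sum over the 37 genes was 1561 ± 181 scaled CPM in the snf5 deletion, 1603 ± 58.3 in the snf2 deletion, 1177 ± 98.0 in the swp82 deletion and 1342 ± 52.3 in the wild type (SD, n = 3 each). The libraries of a group were not alike in this. The snf5 deletion replicates 1, 2 and 3 had sums of 1750.5, 1542 and 1389 scaled CPM. ATG41 alone gave 107, 119 and 192 of these sums, against a mean of 47.7 in the wild type, so the sums lean on this gene. Replicate 1 was the highest of its group for 27 ATG genes while replicate 3 was the lowest for 28. Among all genes replicate 1 was highest for 40.7% and replicate 3 lowest for 40.4%. The median ATG gene lay at 0.32, 0.16 and -0.06 on the log2 scale from the wild-type mean in snf5 deletion replicates 1, 2 and 3. In the swp82 deletion it lay at -0.07, -0.33 and -0.32 in replicates 1, 2 and 3, and replicate 1 was the highest of its group for 25 ATG genes, against 36.1% of all genes. In the snf2 deletion it lay at 0.21, 0.18 and 0.23, with replicate 1 highest for 17 ATG genes, against 33.0% of all genes. In the wild type it lay at 0.07, -0.05 and 0.00, with replicate 1 highest for 21 ATG genes, against 36.6% of all genes. So the median member was close to its wild-type level in snf5 deletion replicate 3 and in swp82 deletion replicate 1, unlike in the other libraries of those groups. These values are shares of the RNA of a whole culture, in which fewer cells with a transcript and less transcript per cell cannot be told apart.

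**Figure D2:**
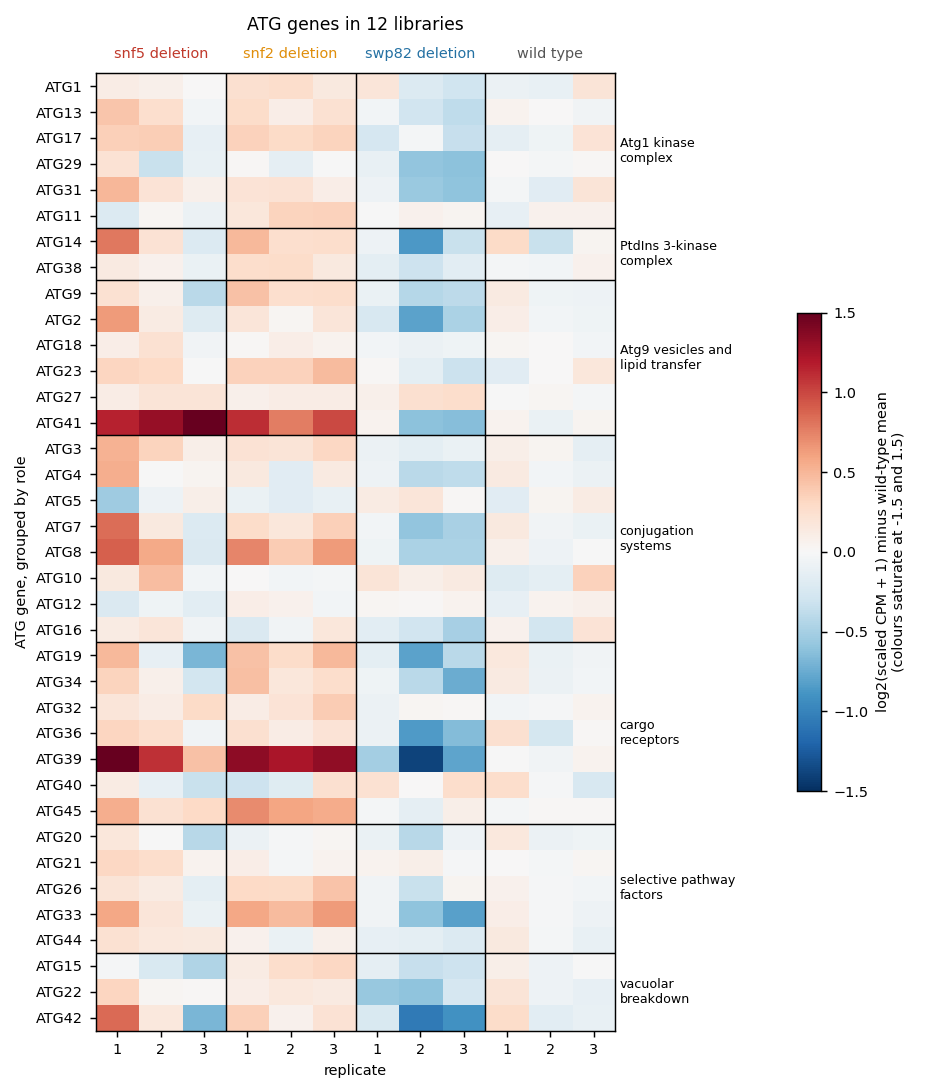
Difference of each ATG gene from its wild-type mean on the log2(value + 1) scale in each of the 12 libraries, with genes grouped by role. Most genes were above the wild-type mean in the 3 snf2 deletion libraries, where the medians were 0.21, 0.18 and 0.23. Most were below it in the 3 swp82 deletion libraries, where the medians were -0.07, -0.33 and -0.32. The numbers of the 37 genes above it there were 9, 8 and 9.

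In the snf5 deletion 6 of 37 ATG genes were called higher than in the wild type at a limma adjusted p under 0.05 (16.2%), and none lower. Among all genes 14.8% were called higher and 14.5% lower, so the share called higher was near the background. The 6 genes were ATG41, ATG39, ATG45, ATG3, ATG21 and ATG27. The median log2 fold change of the 37 was 0.17, against -0.01 for all genes, and 28 of the 37 were above 0. Without snf5 deletion replicate 1 that median was 0.04, and 4 members were called higher and 1, ATG15, lower. The count was 3 without wild type replicate 2 or 3, without snf2 deletion replicate 1 or 2, or without snf5 deletion replicate 2. Over all genes those fits called 1219, 1268, 1557, 1565 and 1342 in that order, against 1704 with all 12 libraries. Without snf5 deletion replicate 1 the calls over all genes numbered 1523, and in a fit of the 2 groups 1253. In a fit of the 2 groups only, ATG41, ATG39 and ATG45 were called, and ATG3, ATG21 and ATG27 were not (adjusted p up to 0.128). Under 1 or more of 20 alternative settings ATG8, ATG13, ATG17, ATG32 and ATG44 were called higher besides these.

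In the snf2 deletion 8 of 37 ATG genes were called higher than in the wild type (21.6%) and none lower, against 13.6% higher and 14.1% lower among all genes. These were ATG45, ATG39, ATG41, ATG11, ATG23, ATG26, ATG32 and ATG33. The median log2 fold change was 0.21, against 0.00 for all genes, and 31 of the 37 were above 0. The count depended on the setting and on single libraries. It was 18 in a fit of these 2 groups only and 16 with total-count scaling. It was 3, 4 and 5 without wild type replicates 1, 2 and 3, it was 5, 3 and 3 without snf2 deletion replicates 1, 2 and 3, and it was 13 without snf5 deletion replicate 3. Calls over all genes moved too. They were 1240 higher and 1235 lower in the fit of 2 groups and 1838 and 468 with total-count scaling, against 792 and 820. Without wild type replicates 1, 2 and 3 they numbered 1368, 1153 and 1190. Without snf2 deletion replicates 1, 2 and 3 they numbered 1193, 1229 and 1182. Without snf5 deletion replicate 3 they numbered 1843, against 1612 with all 12 libraries. The 12 members that were called higher under 1 or more alternatives only were ATG1, ATG3, ATG7, ATG8, ATG9, ATG13, ATG15, ATG17, ATG19, ATG27, ATG34 and ATG38. In what follows a member is said to be called, or not called, in the fit of all 12 libraries unless another setting is named. Both comparisons, and that of the swp82 deletion below, share the 3 wild-type libraries, so their values are set side by side and not counted as separate evidence. ATG39, ATG41 and ATG45 were called in both, 3 members in the snf5 and 5 in the snf2 deletion alone, and 26 in neither. A call in 1 deletion alone does not show that the deletions differ, and that difference is tested further on.

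With limma, 0 ATG genes were called when the swp82 deletion was compared with the wild type, where 3.49% of all genes were called, 1.41% higher and 2.08% lower. Of the 37, 12 had an unadjusted limma p under 0.05, against 1430 of all 5820 genes tested. On the recovered reads, edgeR's quasi-likelihood test called 0 of the 37, and 199 of all genes. DESeq2 called 3 of the 37, ATG27 higher and ATG22 and ATG39 lower. The median log2 fold change was -0.24, against 0.00 for all genes, and 7 of the 37 were above 0. Same-numbered libraries of these 2 groups deviated together, and with the replicate number as a block 8 members were called: ATG27 higher, and ATG2, ATG22, ATG29, ATG33, ATG34, ATG36 and ATG39 lower. Without swp82 deletion replicate 1 the group-only fit called 6, with ATG27 higher and ATG29, ATG31, ATG33, ATG36 and ATG39 lower. It called ATG22 lower without swp82 deletion replicate 3, ATG2, ATG22 and ATG39 lower without snf5 deletion replicate 1, and ATG22 and ATG39 lower without snf5 deletion replicate 3. With total-count scaling ATG22 alone was called, as lower. Calls over all genes moved in these settings too. They numbered 783 with the block (394 higher, 389 lower) and 511 with DESeq2 (279 higher, 232 lower), against 203 in the group-only fit. They numbered 625 without swp82 deletion replicate 1 and 95 without its replicate 3. Without snf5 deletion replicates 1 and 3 they numbered 376 and 479, and with total-count scaling 323.

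**Figure D3:**
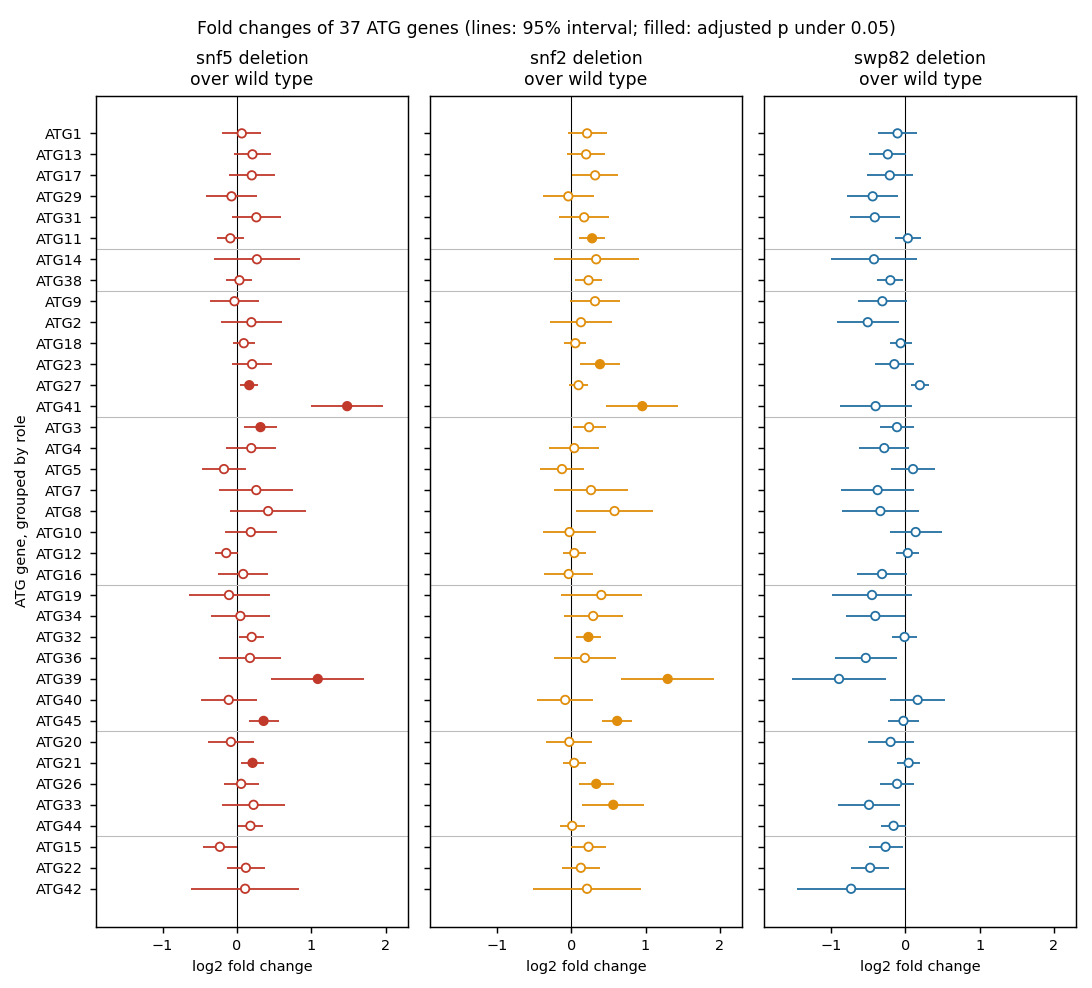
Log2 fold change of each of the 37 ATG genes over the wild type in the snf5, snf2 and swp82 deletions, with 95% intervals from limma (3 libraries per group). Filled points mark an adjusted p under 0.05, of which there were 6, 8 and 0.

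ATG41 changed most among the members in the snf5 deletion. Its product binds Atg9 and is needed for normal autophagosome formation. It read 107, 119 and 192 scaled CPM in the snf5 deletion, 104, 82.0 and 96.0 in the snf2 deletion, 49.3, 30.9 and 30.2 in the swp82 deletion and 49.5, 44.6 and 49.1 in the wild type. All 6 snf5 and snf2 deletion libraries were above all 6 swp82 deletion and wild-type libraries, and the highest value was in snf5 deletion replicate 3, the library in which most other members were lowest for its group. The log2 fold change over the wild type was 1.48 ± 0.22 (SE, limma adjusted p = 0.000494) in the snf5 deletion, a 2.79-fold difference. The snf2 deletion had 0.96 ± 0.22 (adjusted p = 0.00776). The swp82 deletion had -0.40 ± 0.22 (adjusted p = 0.277), and there the swp82 deletion and wild-type ranges overlapped.

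ATG39 encodes the receptor for autophagy of the nuclear envelope and perinuclear endoplasmic reticulum. Its values were 13.7, 8.44 and 5.01 scaled CPM in the snf5 deletion, 10.2, 9.37 and 10.2 in the snf2 deletion, 2.12, 0.696 and 1.57 in the swp82 deletion and 3.41, 3.29 and 3.61 in the wild type. The ranges of the snf5 and snf2 deletions lay wholly above that of the wild type and the range of the swp82 deletion wholly below it, with a wide spread inside the snf5 deletion. Set against the wild type, the snf5 deletion was higher by 1.09 ± 0.28 on the log2 scale (SE, limma adjusted p = 0.0149). The snf2 deletion was higher by 1.30 ± 0.28 (adjusted p = 0.00607). For the swp82 deletion the log2 fold change was -0.89 ± 0.28 (adjusted p = 0.0986, and 0.0442 with the replicate block). At these low levels log2(value + 1) understates the change.

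ATG45 encodes a receptor that delivers glycogen to autophagosomes. It read 24.3, 19.3 and 20.2 scaled CPM in the snf5 deletion, 27.4, 25.0 and 24.4 in the snf2 deletion, 16.0, 14.7 and 17.4 in the swp82 deletion and 15.9, 16.5 and 16.5 in the wild type. Every snf5 and snf2 deletion library was above every other library, and the swp82 deletion range enclosed that of the wild type. Over the wild type it was higher by 0.36 ± 0.09 on the log2 scale in the snf5 deletion (SE, limma adjusted p = 0.0135) and by 0.62 ± 0.09 in the snf2 deletion (adjusted p = 0.000554). The swp82 deletion had -0.03 ± 0.09 (adjusted p = 0.883). The calls of ATG41, ATG39 and ATG45 in the snf5 and snf2 deletions were kept under each of the 20 alternative settings, which include leaving out each library in turn. The authors' deposited table of filtered genes, 506 in all, held ATG39 and ATG41 and no other member.

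**Figure D4:**
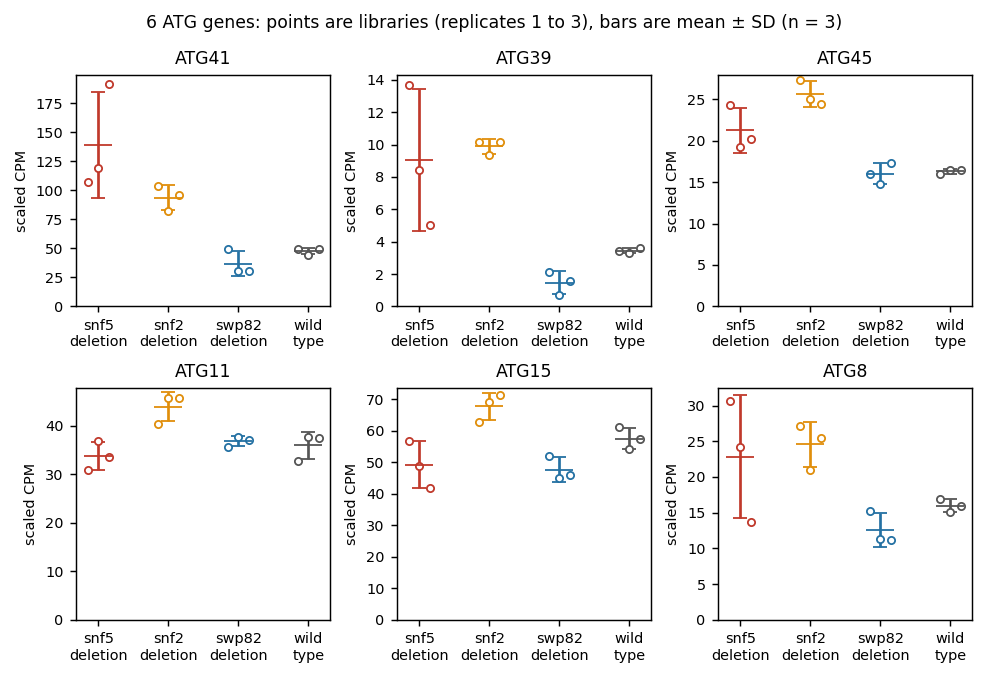
Scaled CPM of ATG41, ATG39, ATG45, ATG11, ATG15 and ATG8 in each library (points) with the mean ± SD of 3 libraries for the snf5, snf2 and swp82 deletions and the wild type, each axis starting at 0. For ATG41, ATG39 and ATG45 the snf5 and snf2 deletion points lie above all wild-type points.

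The promoters of these 3 genes are shown because they were the members called in both deletions. Each sequence runs from 250 bases before to 50 bases after the annotated start of the gene, which is its start codon, on the gene's strand and from the RefSeq R64 assembly. They lie at chrXVI:74670-74969 (minus strand) for ATG41, chrXII:758784-759083 (minus) for ATG39 and chrIX:309122-309421 (minus) for ATG45. Capitals mark matches on either strand to 7 motifs: the URS1 core GCCGCC of Ume6, the stress element AGGGG, the GATA element GATAAG, the Gcn4 core TGACTC, the E-box CACGTG, and the TATA elements TATAAA and TATATA.
ATG41: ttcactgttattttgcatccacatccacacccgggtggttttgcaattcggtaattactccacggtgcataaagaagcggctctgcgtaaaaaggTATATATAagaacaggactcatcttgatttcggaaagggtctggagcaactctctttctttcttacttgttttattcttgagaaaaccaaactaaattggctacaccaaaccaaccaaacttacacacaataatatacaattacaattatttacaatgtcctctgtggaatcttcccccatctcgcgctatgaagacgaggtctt
ATG39: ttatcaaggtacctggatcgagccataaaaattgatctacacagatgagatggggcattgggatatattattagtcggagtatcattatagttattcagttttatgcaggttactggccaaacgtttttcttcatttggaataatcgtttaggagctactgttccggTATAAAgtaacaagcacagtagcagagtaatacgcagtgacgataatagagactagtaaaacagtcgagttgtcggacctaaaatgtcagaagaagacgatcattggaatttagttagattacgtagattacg
ATG45: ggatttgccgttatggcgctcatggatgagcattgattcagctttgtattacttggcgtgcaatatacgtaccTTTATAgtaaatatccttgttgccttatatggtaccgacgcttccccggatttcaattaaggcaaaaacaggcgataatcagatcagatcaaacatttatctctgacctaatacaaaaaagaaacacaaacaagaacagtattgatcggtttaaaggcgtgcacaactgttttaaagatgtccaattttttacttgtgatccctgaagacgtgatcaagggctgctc
Of the 7 motifs these 3 windows held only TATA elements. ATG41 had a pair of overlapping TATATA matches 155 and 153 bases before the start codon, ATG39 had TATAAA 83 bases before it, and ATG45 had TATAAA on the opposite strand 177 bases before it. TATAAA was in 12 of 37 ATG promoters and 45.2% of 6001 promoters of the same length, and TATATA in 9 of 37 and 32.3%.

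The URS1 core was in 3 of 37 ATG promoters and 5.13% of all promoters. That of ATG8 is shown because Ume6 is a known repressor of ATG8, and that of ATG42 is set beside it as another window with the core. Their windows lie at chrII:80682-80981 (minus strand) and chrII:515414-515713 (plus), with capitals as before.
ATG8: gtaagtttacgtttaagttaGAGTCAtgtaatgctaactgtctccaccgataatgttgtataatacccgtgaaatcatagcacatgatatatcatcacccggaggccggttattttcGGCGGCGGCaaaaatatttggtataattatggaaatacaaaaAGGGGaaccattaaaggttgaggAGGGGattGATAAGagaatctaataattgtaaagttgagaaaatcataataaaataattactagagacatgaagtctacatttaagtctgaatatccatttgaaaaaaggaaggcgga
ATG42: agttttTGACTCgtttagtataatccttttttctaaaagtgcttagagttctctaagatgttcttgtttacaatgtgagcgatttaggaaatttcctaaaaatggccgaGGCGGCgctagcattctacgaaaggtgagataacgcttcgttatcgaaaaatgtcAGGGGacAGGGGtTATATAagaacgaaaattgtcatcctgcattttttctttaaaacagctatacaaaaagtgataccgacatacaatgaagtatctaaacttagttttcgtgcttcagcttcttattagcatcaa
ATG8 had 2 overlapping URS1 cores 133 and 130 bases before the start codon and ATG42 had 1 at 141 bases, all on the strand opposite to the gene. Both also had the stress element, which was in 8 of 37 ATG promoters and 21.6% of all promoters. The GATA element was in 10 of 37 and 14.7%, the Gcn4 core in 7 of 37 and 7.98%, and the E-box in 2 of 37 and 2.92%. A match describes the letters and is not evidence that a factor binds, and a window without a match says only that these letters are not in it.

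ATG8 encodes the ubiquitin-like protein that is joined to the autophagosome membrane. It read 30.7, 24.2 and 13.6 scaled CPM in the snf5 deletion, 27.2, 21.0 and 25.5 in the snf2 deletion, 15.3, 11.3 and 11.2 in the swp82 deletion and 16.9, 15.1 and 16.0 in the wild type. The snf2 deletion lay above the wild type without overlap and the swp82 deletion overlapped it, while snf5 deletion replicate 3 fell below every wild-type library. The log2 fold change over the wild type was 0.42 ± 0.23 (SE, limma adjusted p = 0.210) in the snf5 deletion, 0.58 ± 0.23 (adjusted p = 0.0868) in the snf2 deletion and -0.34 ± 0.23 (adjusted p = 0.374) in the swp82 deletion, none past the threshold. The snf2 deletion was called higher under 6 of the 20 alternatives. These were the fit of 2 groups (adjusted p = 0.00226), the replicate block (0.0347), total-count scaling (0.0374), DESeq2 (0.0475), and the fits without snf5 deletion replicate 1 (0.0350) or 3 (0.00868). Without snf5 deletion replicate 3 the snf5 deletion was also called higher (adjusted p = 0.00490). ATG19, the receptor of the Cvt pathway, read 92.1, 60.1 and 40.2 scaled CPM in the snf5 deletion, and ATG42, a vacuolar carboxypeptidase, read 172, 106 and 58.6. Like ATG8, both were highest in snf5 deletion replicate 1 and lowest in replicate 3 of that group, where replicate 1 was highest for 27 and replicate 3 lowest for 28 of the 37 members. Both had a range that enclosed the wild-type values of 60.9 to 72.8 for ATG19 and 84.9 to 115 for ATG42. Neither was called in any comparison with the wild type. ATG19 read 89.4, 79.6 and 92.3 scaled CPM in the snf2 deletion, above the wild type, and a fit of these 2 groups called it higher by 0.40 on the log2 scale (limma adjusted p = 0.00510, against 0.255 in the fit of 12 libraries).

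In the Atg1 kinase complex, which starts autophagosome formation, ATG11 was the only one of 6 members called against the wild type. Atg11 is the scaffold that links cargo receptors to the kinase. ATG11 read 31.0, 36.8 and 33.6 scaled CPM in the snf5 deletion, 40.4, 45.6 and 45.8 in the snf2 deletion, 35.7, 37.7 and 37.0 in the swp82 deletion and 32.8, 37.7 and 37.5 in the wild type. All 3 snf2 deletion libraries were above the other 9. Its log2 fold change over the wild type was 0.28 ± 0.08 (SE, limma adjusted p = 0.0244) in the snf2 deletion, a call lost without wild type replicate 1 or snf2 deletion replicate 2 or 3 (adjusted p up to 0.0922), and -0.09 ± 0.08 (adjusted p = 0.454) in the snf5 deletion. The kinase gene ATG1 averaged 30.0 ± 1.15 scaled CPM in the snf5 strain, 33.4 ± 1.46 in the snf2 strain, 26.9 ± 5.04 in the swp82 strain and 28.8 ± 3.63 in the wild type (SD, n = 3), with overlapping ranges. Its regulatory subunit gene ATG13 and the scaffold genes ATG17, ATG29 and ATG31 were not called against the wild type, but each was under other settings. In a fit of the snf2 deletion and the wild type only, ATG13 and ATG17 were called higher (limma adjusted p = 0.0205 and 0.0258). Without snf5 deletion replicate 3 both were called higher in the snf5 deletion (adjusted p = 0.0245 and 0.0367). ATG29 was lower in the swp82 deletion with the replicate block (adjusted p = 0.0441), and both ATG29 and ATG31 were lower there without swp82 deletion replicate 1 (adjusted p = 0.0299 and 0.0284). ATG29 overlaps SET6 on the opposite strand by 24 bases, and whether counting used strand is not given in the sources used here.

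ATG14 and ATG38 encode the subunits that define the autophagy form of the phosphatidylinositol 3-kinase complex, and neither was called against the wild type. ATG38 read 25.8, 26.1 and 23.7 scaled CPM in the snf2 deletion, above the wild-type libraries at 20.9, 20.6 and 22.4. It missed the threshold narrowly there (limma adjusted p = 0.05003) and was called higher under 7 of the 20 alternatives, both other scalings, the fit of 2 groups and edgeR's quasi-likelihood test among them (adjusted p from 0.00754). ATG14 averaged 10.2 ± 3.89 scaled CPM in the snf5 strain, 10.3 ± 1.08 in the snf2 strain, 5.85 ± 1.80 in the swp82 strain and 8.10 ± 1.94 in the wild type (SD, n = 3).

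Among the 6 genes for Atg9 vesicles and lipid transfer, ATG23 and ATG27 were called besides ATG41. Both products carry Atg9 to the site where the autophagosome forms. ATG23 read 28.7, 28.3 and 22.7 scaled CPM in the snf5 deletion, 29.2, 29.2 and 32.1 in the snf2 deletion, 23.2, 20.5 and 18.0 in the swp82 deletion and 20.1, 22.9 and 25.8 in the wild type. The snf2 deletion values lay above the wild type and the snf5 deletion values overlapped it. Its log2 fold change was 0.39 ± 0.12 (SE, limma adjusted p = 0.0332) in the snf2 deletion, a call lost without wild type replicate 1 or 2 or any 1 snf2 deletion library (adjusted p up to 0.119). ATG27 read 157, 167 and 166 scaled CPM in the snf5 deletion, 153, 157 and 158 in the snf2 deletion, 154, 172 and 175 in the swp82 deletion and 145, 149 and 143 in the wild type. Every deletion library was above every wild-type library. Its log2 fold changes were 0.16 ± 0.06 for the snf5 strain (adjusted p = 0.0451), 0.10 ± 0.06 for the snf2 strain (adjusted p = 0.220) and 0.19 ± 0.06 for the swp82 strain (adjusted p = 0.0795). The snf5 call was lost without any 1 wild-type or snf2 deletion library, swp82 deletion replicate 2, or snf5 deletion replicate 2 or 3 (adjusted p up to 0.133). ATG9, ATG2, the lipid transfer protein gene, and ATG18, whose product binds phosphatidylinositol 3-phosphate and Atg2, were not called against the wild type. ATG2 spread widely in the snf5 deletion, at 60.9, 42.3 and 33.6 scaled CPM, against 41.6, 37.4 and 36.9 in the wild type.

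Of the 8 genes of the conjugation systems, only ATG3 was called against the wild type. Atg3 is the E2-like enzyme that joins Atg8 to lipid. ATG3 read 40.9, 35.7 and 30.0 scaled CPM in the snf5 deletion, 32.7, 32.4 and 35.2 in the snf2 deletion, 26.4, 25.3 and 26.1 in the swp82 deletion and 30.1, 29.0 and 25.5 in the wild type. The snf5 deletion range touched that of the wild type and the snf2 deletion range did not. Its snf5 deletion fold change was 0.32 ± 0.10 on the log2 scale (SE, limma adjusted p = 0.0368), and its snf2 deletion fold change was 0.24 ± 0.10 (adjusted p = 0.102). The snf5 call was lost without wild type replicate 2 or 3, snf2 deletion replicate 1 or 2, or snf5 deletion replicate 1 or 2 (adjusted p up to 0.140). ATG7, for the E1-like enzyme, ATG4, for the Atg8 protease, ATG10, and ATG5, ATG12 and ATG16, for the complex that helps Atg3, were not called. ATG5, like ATG40 below, had its highest mean in the swp82 deletion and its lowest in the snf5 deletion. The ATG5 means were 33.7 ± 7.26 scaled CPM in the snf5 strain and 34.4 ± 0.899 in the snf2 strain (SD, n = 3). They were 40.5 ± 2.34 in the swp82 strain and 37.7 ± 3.89 in the wild type.

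Of the 7 cargo receptor genes, ATG32 was called besides ATG39 and ATG45. Atg32 is the mitophagy receptor. ATG32 read 40.1, 38.1 and 43.1 scaled CPM in the snf5 deletion, 37.9, 40.6 and 46.0 in the snf2 deletion, 33.1, 35.9 and 35.6 in the swp82 deletion and 34.2, 34.7 and 36.5 in the wild type. All snf5 and snf2 deletion libraries were above all wild-type libraries. Log2 fold changes were 0.20 ± 0.08 for the snf5 deletion (SE, limma adjusted p = 0.0767) and 0.23 ± 0.08 for the snf2 deletion (adjusted p = 0.0446). The snf2 call was lost without any 1 wild-type library, swp82 deletion replicate 2 or 3, snf2 deletion replicate 2 or 3, or snf5 deletion replicate 2 (adjusted p up to 0.174). ATG19, ATG34, for the receptor of the hydrolase Ams1, ATG36, for the pexophagy receptor, and ATG40, for the receptor of cortical endoplasmic reticulum, were not called. ATG40 was among the few members with the highest mean in the swp82 deletion, at 15.3 ± 2.57 scaled CPM in the snf5 strain, 15.8 ± 3.45 in the snf2 strain, 18.7 ± 1.83 in the swp82 strain and 16.7 ± 3.08 in the wild type (SD, n = 3).

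The 5 other factors of selective pathways held 3 calls. ATG33, used in mitophagy, read 94.6, 71.7 and 58.7 scaled CPM in the snf5 deletion, 94.9, 87.9 and 98.3 in the snf2 deletion, 60.4, 41.2 and 35.4 in the swp82 deletion and 67.4, 62.0 and 59.6 in the wild type. The snf2 deletion lay above the wild type, the snf5 deletion enclosed it, and swp82 deletion replicates 2 and 3 were the lowest of the 12. Log2 fold changes were 0.57 ± 0.19 for the snf2 deletion (SE, limma adjusted p = 0.0463) and -0.49 ± 0.19 for the swp82 deletion (adjusted p = 0.150, and 0.0398 in the fit with replicate number as a block). The snf2 call was lost without any 1 wild-type or snf2 deletion library, or without replicate 2 of the swp82 or snf5 deletion (adjusted p up to 0.130).

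ATG26 encodes a sterol glucosyltransferase, whose role in pexophagy is known from Pichia. It read 87.5, 83.4 and 69.2 scaled CPM in the snf5 deletion, 94.3, 93.3 and 104 in the snf2 deletion, 73.9, 60.7 and 79.1 in the swp82 deletion and 80.4, 75.3 and 74.1 in the wild type. The snf2 deletion libraries were the 3 highest of the 12. In the snf2 deletion the log2 fold change was 0.34 ± 0.11 (SE, limma adjusted p = 0.0364), lost without any 1 wild-type or snf2 deletion library (adjusted p up to 0.128). ATG21 encodes a phosphatidylinositol 3-phosphate binding protein of the Cvt pathway. It read 55.8, 53.6 and 46.3 scaled CPM in the snf5 deletion, 47.7, 43.8 and 46.3 in the snf2 deletion, 46.5, 47.7 and 44.0 in the swp82 deletion and 44.8, 43.7 and 45.5 in the wild type. The snf5 deletion lay above the wild type by a narrow gap in replicate 3. Its log2 fold change there was 0.21 ± 0.07 (adjusted p = 0.0470), lost without any 1 wild-type or snf2 deletion library or without replicate 1 or 2 of the swp82 or snf5 deletion, in the fit of 2 groups and with upper-quartile scaling (adjusted p up to 0.147). ATG20, for a sorting nexin, and ATG44 were not called against the wild type.

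The 3 vacuolar genes are ATG15, for the lipase that opens the autophagic body, ATG22, for an amino acid exporter, and ATG42. ATG22 had the smallest adjusted p of any member in the swp82 deletion. It read 31.3, 25.4 and 25.2 scaled CPM in the snf5 deletion, 26.7, 28.0 and 27.5 in the snf2 deletion, 16.5, 16.1 and 20.8 in the swp82 deletion and 28.6, 23.7 and 22.9 in the wild type. All 3 swp82 deletion libraries were below the other 9. Over the wild type the swp82 deletion had a log2 fold change of -0.47 ± 0.12 (SE, limma adjusted p = 0.0533, and 0.0305 with the replicate block). It was called lower under 6 of the 20 alternatives, with DESeq2 giving the smallest adjusted p at 0.0161.

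Between the snf5 and snf2 deletions, which share kanMX4 and the labelled tag but differ in LEU2 reads, 2 of 37 ATG genes were called, both lower in the snf5 deletion, against 12.5% of all genes called, 5.79% higher and 6.68% lower. ATG11, with the values above, had a log2 difference of -0.37 ± 0.08 (SE, limma adjusted p = 0.0147). ATG15 read 56.8, 49.0 and 41.9 scaled CPM in the snf5 deletion, 62.9, 69.3 and 71.2 in the snf2 deletion, 52.1, 44.9 and 46.1 in the swp82 deletion and 61.1, 54.3 and 57.3 in the wild type. Its snf5 deletion libraries were all below its snf2 deletion libraries, and the wild type lay between the group means. The log2 difference was -0.46 ± 0.10 (adjusted p = 0.0169). Both calls were lost without snf2 deletion replicate 2 or 3 (adjusted p up to 0.0617 for ATG11 and 0.0684 for ATG15) and in a fit of these 2 groups only (0.0678 and 0.0772). Without snf5 deletion replicate 1, 5 members were called lower, with ATG9, ATG19 and ATG45 besides these, and without snf5 deletion replicate 3 ATG21 was called higher besides them. Over all genes those fits called 909 and 555 in that order, against 726 with all 12 libraries. The median difference of the 37 was -0.05, and 0.08 without snf5 deletion replicate 3.

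For ATG41, ATG39 and ATG45 the difference of the snf5 from the snf2 deletion was not past the threshold. The log2 difference was 0.52 with a 95% interval of 0.04 to 1.01 for ATG41 (limma adjusted p = 0.147) and -0.26 with an interval of -0.46 to -0.06 for ATG45 (adjusted p = 0.0897). For ATG39 it was -0.21 with an interval of -0.84 to 0.42. A p that misses the threshold does not show that the 2 deletions act alike on these genes.

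Against the swp82 deletion, which shares kanMX4 and the labelled tag with the other deletions but, like the snf2 deletion, had no LEU2 reads, more members were called. In the snf5 deletion 18 of 37 ATG genes were called higher (48.6%) and none lower, against 41.9% of all genes called, 20.4% higher and 21.5% lower. The median log2 difference was 0.37, and 23 were called with the replicate block, the same-numbered libraries of these groups having also deviated together. A fit of these 2 groups only called 6, and total-count scaling 29. The count was 10 without swp82 deletion replicate 2 or 3 and 11 without snf5 deletion replicate 1. Without snf5 deletion replicate 3 it was 27, of which 1, ATG5, was lower. Over all genes the calls numbered 2942 with the block, 1314 in the fit of 2 groups and 2884 with total-count scaling, against 2438. They numbered 1748 and 1923 without swp82 deletion replicates 2 and 3, and 1953 and 3031 without snf5 deletion replicates 1 and 3. In the snf2 deletion 25 of 37 were called higher than in the swp82 deletion (67.6%) and none lower, against 43.5% of all genes called, 21.7% higher and 21.8% lower. The median log2 difference was 0.45. The count was 33 with total-count scaling, 28 without snf5 deletion replicate 1 and 16 without snf2 deletion replicate 3. Over all genes those fits called 3516, 2943 and 1839 in that order, against 2533. ATG5 was also called lower in the snf2 than in the swp82 deletion in the fit of these 2 groups and without snf5 deletion replicate 1. ATG27 was called lower there without swp82 deletion replicate 1.

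The members were spread over all 7 roles in these comparisons. In the snf2 against the swp82 deletion, 5 of 6 kinase complex genes, both lipid kinase genes, 4 of 6 vesicle and lipid transfer genes, 3 of 8 conjugation genes, 6 of 7 receptor genes, 2 of 5 selective factors and all 3 vacuolar genes were called higher. In the snf5 against the swp82 deletion the numbers in the same order were 3, 1, 3, 4, 4, 2 and 1. ATG39 differed most, by 1.98 ± 0.28 in the snf5 and 2.19 ± 0.28 in the snf2 deletion (log2, SE, limma adjusted p = 0.000357 and 0.000148). ATG41 followed, by 1.88 ± 0.22 and 1.36 ± 0.22 (adjusted p = 8.06e-05 and 0.000657). ATG8 was higher than in the swp82 deletion by 0.75 ± 0.23 in the snf5 deletion (adjusted p = 0.0243) and 0.92 ± 0.23 in the snf2 deletion (adjusted p = 0.00923), and ATG33 by 0.71 ± 0.19 (adjusted p = 0.0122) and 1.06 ± 0.19 (adjusted p = 0.00130). ATG5 had differences of -0.28 in the snf5 and -0.23 in the snf2 deletion. Calls kept under all 20 alternatives numbered 6 of 18 in the snf5 and 16 of 25 in the snf2 deletion. Both comparisons share the swp82 deletion libraries.

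Total-count scaling was also used in place of the authors' factors. Against the wild type, the median log2 fold change of all genes was then 0.08, 0.13 and -0.07 for the snf5, snf2 and swp82 strains. It was -0.05 between the snf5 and snf2 deletions, and 0.16 and 0.21 for the snf5 and snf2 deletions against the swp82 deletion. The ATG medians in the same order were then 0.26, 0.35, -0.31, -0.10, 0.51 and 0.67. They kept their signs and lay away from these medians of all genes in the same direction. The calls over all genes moved with the scaling. They were 1368 higher and 549 lower in the snf5 deletion over the wild type, against 862 and 842 with the authors' factors, and 1838 and 468 in the snf2 deletion, against 792 and 820. They were 50 higher and 273 lower in the swp82 deletion, against 82 and 121. Between the snf5 and snf2 deletions they were 246 and 545, against 337 and 389. Over the swp82 deletion they were 2283 and 601 in the snf5 deletion, against 1189 and 1249, and 2939 and 577 in the snf2 deletion, against 1265 and 1268. With upper-quartile scaling they were 1000 and 689 in the snf2 deletion over the wild type and 1612 and 1015 over the swp82 deletion. Against the wild type, neither scaling called an ATG gene lower in the snf5 or snf2 deletion or higher in the swp82 deletion, where total-count scaling called ATG22 lower. The snf5 call of ATG21 was lost with upper-quartile scaling.

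**Figure D5:**
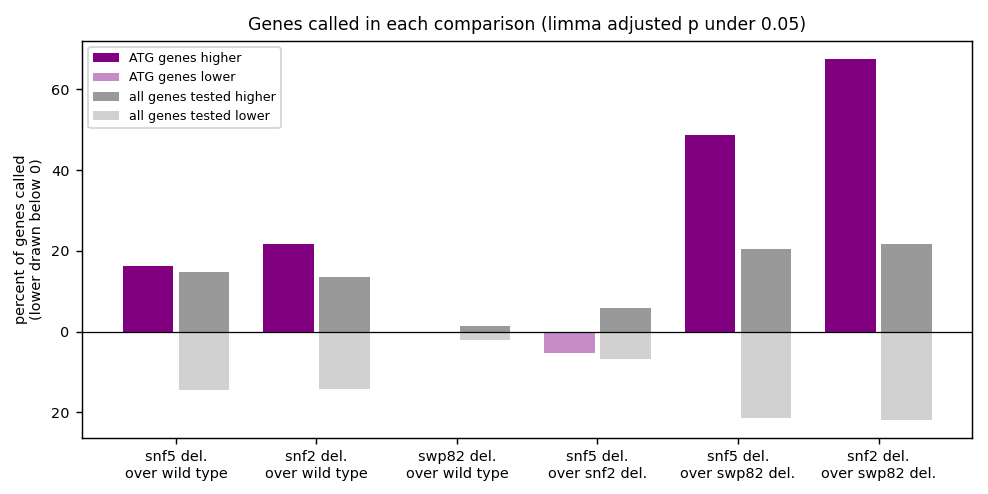
Percent of ATG genes and of all genes tested that were called higher (above 0) and lower (below 0) in each of the 6 comparisons, limma adjusted p under 0.05. In the snf2 over the swp82 deletion 67.6% of ATG genes were called higher against 21.7% of all genes.

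Genes that act with the ATG products but carry other names were read from 5 lists. Against the wild type, 29.3% of all genes were called for the snf5 strain, 27.7% for the snf2 strain and 3.49% for the swp82 strain, with median log2 fold changes of -0.01, 0.00 and 0.00. In the same order 14.8%, 13.6% and 1.41% of all genes were called higher and 14.5%, 14.1% and 2.08% lower, and the lists are small beside these shares. In the vacuole fusion list of 16 genes, 5 were called higher and 2 lower in the snf5 deletion, 5 higher and 0 lower in the snf2 deletion, and 0 in the swp82 deletion. YPT7, the Rab GTPase of vacuole fusion, averaged 138 ± 11.7 scaled CPM in the snf5 strain, 125 ± 3.81 in the snf2 strain, 104 ± 6.97 in the swp82 strain and 100.2 ± 1.20 in the wild type (SD, n = 3). Its log2 fold change was 0.45 ± 0.07 (SE, limma adjusted p = 0.000549) in the snf5 and 0.32 ± 0.07 (adjusted p = 0.00542) in the snf2 deletion. SEC17, which helps take SNARE complexes apart, was higher by 0.33 ± 0.04 (adjusted p = 0.000151) in the snf5 and 0.27 ± 0.04 (adjusted p = 0.000709) in the snf2 deletion. The SNARE genes NYV1, in the snf5 deletion, and VTI1, in the snf2 deletion, were higher by 0.37 ± 0.08 (adjusted p = 0.00551) and 0.39 ± 0.09 (adjusted p = 0.00811). YKT6, another SNARE gene, had the smallest p of the list in the swp82 deletion, at 0.20 ± 0.06 (adjusted p = 0.0878). The lower genes in the snf5 deletion were MON1, a subunit of the exchange factor for Ypt7, at -0.30, and VPS33, a tethering complex subunit, at -0.24, both named after their values were seen. The MON1 call was lost with total-count scaling or without wild type replicate 1 or 2 or snf5 deletion replicate 2 (adjusted p up to 0.0971). The VPS33 call was lost with total-count scaling, in the fit of 2 groups or without wild type replicate 3 (adjusted p up to 0.115). The list's median log2 fold change was 0.07 for the snf5 strain, 0.10 for the snf2 strain and -0.01 for the swp82 strain.

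Of 10 vacuolar hydrolases and cargo proteins other than Atg42, 1 was called higher and 1 lower in the snf5 deletion, 3 higher in the snf2 deletion and 0 in the swp82 deletion, with list medians of 0.07, 0.15 and -0.22. The Cvt cargo gene APE1 averaged 133 ± 61.4 scaled CPM in the snf5 strain, 252 ± 19.2 in the snf2 strain, 77.2 ± 37.5 in the swp82 strain and 124 ± 22.3 in the wild type (SD, n = 3). Its log2 fold change for the snf2 deletion was 1.03 ± 0.34 (SE, limma adjusted p = 0.0446), lost without any 1 wild-type or snf2 deletion library or without replicate 2 of the swp82 or snf5 deletion (adjusted p up to 0.134). The protease gene PRB1 was higher by 0.66 ± 0.16 in the snf2 deletion (adjusted p = 0.0124), with an adjusted p of 0.0506 without wild type replicate 2. The vacuolar phosphatase gene PHO8 was higher there by 0.23 ± 0.06 (adjusted p = 0.0216), a call lost without wild type or snf2 deletion replicates 2 or 3 (up to 0.0938). In the snf5 deletion the aminopeptidase gene APE3 was higher by 0.21 ± 0.07 (adjusted p = 0.0338), a call lost without wild type replicate 2 or 3 or snf5 deletion replicate 1 and in the fit of 2 groups (up to 0.117). The carboxypeptidase gene CPS1 was lower there, at -0.39 ± 0.13 (adjusted p = 0.0414), a call lost without any 1 wild-type, snf2 or snf5 deletion library or swp82 deletion replicate 2 and under both other scalings (up to 0.127). CPS1 also had the smallest p of the list in the swp82 deletion, at -0.39 ± 0.13 (adjusted p = 0.108).

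Of 12 partners in the lipid kinase complexes, sorting and selective autophagy other than Atg20, 2 were called higher and 1 lower in the snf5 deletion, 1 higher in the snf2 deletion and 0 in the swp82 deletion, with list medians of 0.05, 0.07 and -0.03. YPT1, a Rab GTPase of the secretory and autophagy pathways, was higher by 0.31 ± 0.04 in the snf5 deletion (SE, limma adjusted p = 0.000291) and by 0.18 ± 0.04 in the snf2 deletion (adjusted p = 0.00883). VPS38, whose product defines the endosomal form of the lipid kinase complex, was lower in the snf5 deletion, at -0.32 ± 0.08 (adjusted p = 0.00986), and in the swp82 deletion, where no gene of the list was called, it stood at -0.26 ± 0.08 (adjusted p = 0.0867). CUE5, which encodes a receptor for ubiquitinated aggregates, was higher by 0.27 ± 0.07 in the snf5 deletion (adjusted p = 0.0109), with an adjusted p of 0.0502 without wild type replicate 2 and 0.0501 in the fit of 2 groups.

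The 26 genes of nutrient-sensing kinases and their partners had median log2 fold changes of 0.02 for the snf5 strain, 0.04 for the snf2 strain and -0.04 for the swp82 strain. TOR2 was the only one of them called in the snf5 deletion, where it was higher by 0.26 ± 0.05 on the log2 scale (SE, limma adjusted p = 0.00304), and it was higher by 0.30 ± 0.05 in the snf2 deletion (adjusted p = 0.00122). RAS2 was lower in the snf2 deletion, at -0.64 ± 0.17 (adjusted p = 0.0173), a call lost without wild type replicate 1 or snf2 deletion replicate 2 (adjusted p up to 0.0638) and with total-count scaling (0.0507). PHO80 was the only one called in the swp82 deletion, by 0.31 ± 0.07 (adjusted p = 0.0310), a call lost without wild type replicate 2 or 3, swp82 deletion replicate 2 or 3 or any 1 snf2 deletion library (adjusted p up to 0.107), with total-count scaling, and in a fit of 2 groups (up to 0.0771).

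Of 16 transcriptional and mRNA regulators of ATG genes, 0 were called higher in any comparison with the wild type. The number called lower was 3 for the snf5 strain, 1 for the snf2 strain and 1 for the swp82 strain, with list medians of -0.01, -0.05 and -0.08. Those are 18.8%, 6.25% and 6.25% of the list, against 14.5%, 14.1% and 2.08% of all genes called lower. Among all genes 14.8%, 13.6% and 1.41% were called higher. With 16 genes these counts are too small to set the list apart from all genes. MSN4, a stress-response activator that binds the stress element, averaged 29.3 ± 2.32 scaled CPM in the snf5 strain, 50.4 ± 2.89 in the snf2 strain, 48.3 ± 0.347 in the swp82 strain and 85.6 ± 6.17 in the wild type (SD, n = 3). Its log2 fold changes were -1.52 ± 0.07 (SE, limma adjusted p = 1e-07) for the snf5 strain, -0.75 ± 0.07 (adjusted p = 2.6e-05) for the snf2 strain and -0.81 ± 0.07 (adjusted p = 0.000188) for the swp82 strain, all kept under the 20 alternatives. RPH1, a repressor of ATG genes, was lower in the snf5 deletion, at -0.47 ± 0.09 (adjusted p = 0.00259), kept likewise. The nitrogen-response activator gene GAT1 was lower there, at -0.44 ± 0.14 (adjusted p = 0.0346), a call lost without any 1 wild-type library or without snf5 deletion replicate 2 or 3 (adjusted p up to 0.120) and under both other scalings (up to 0.0916). UME6 was not called in any comparison with the wild type.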

How the data were processed

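Groups and replicate numbers came from the sample labels, which call the cultures independent biological triplicates. Per the labels, hot acid phenol extraction was followed by stranded mRNA library construction. Per the submitters' processing notes the tools were edgeR 3.8.6, Bowtie2 2.1.0 and TopHat2 2.0.10 and the build was sacCer3, which is R64. How reads were counted and filtered is not given in the sources used here. In its steps the deposited signal behaves as CPM divided by a scaling factor (0.907 to 1.08), and 100% of values were whole multiples of 1 read (largest deviation 5.53e-05 read, tolerance 0.05). A second deposited table gives the authors' group means of that signal for a filtered list. Depth was 9012746 to 12875057 reads.

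limma 3.58.1 (R 4.3.3, trend) was fitted to log2(value + 1) over 12 libraries with a group term only. Genes that reached a value of 1 in fewer than 3 libraries were left out, which kept 5820 genes and removed 115. P-values were two-sided and adjusted by Benjamini-Hochberg over all 5820, and calls were at an adjusted p under 0.05. The test was checked on simulated data. edgeR 4.0.16 and DESeq2 1.42.0 were run on the recovered reads. Other alternatives were a pseudocount of 0.1, no filter, total-count and upper-quartile scaling, a replicate block, only the groups compared, and each library left out. Replicate numbers were taken to pair libraries where all 3 same-numbered pairs of deviations from the group means correlated above 0.1, which held for swp82 deletion and wild type (0.255 to 0.599) and for snf5 and swp82 deletions (0.116 to 0.660).

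Library values were given for members called against the wild type or between the snf5 and snf2 deletions. Outside that rule they were also given, in full or in part, for ATG2, ATG8, ATG19, ATG22, ATG38 and ATG42, which were not called there. Other members were named for their level, role or order. In each list and comparison the called genes with the smallest p-values were named, up to 3, and some further ones for their role. Members and lists were chosen with earlier results of these data known. Promoters were read from R64, to which 5685 identifiers matched and 250 did not, with Python 3.11.15. The promoter of 1 member is not reported here.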

Additional observations from a re-analysis of the deposited data

How the results depend on the processing

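With each library left out in turn, the number of ATG genes called was 3 to 8 for the snf5 strain, 3 to 13 for the snf2 strain and 0 to 6 for the swp82 strain, each against the wild type. It was 0 to 5 between the snf5 and snf2 deletions, 10 to 27 in the snf5 and 16 to 28 in the snf2 deletion against the swp82 deletion, and 11 to 27 in the F test. Fits with only the 2 groups compared called 3 in the snf5 and 18 in the snf2 deletion against the wild type, 0 between the snf5 and snf2 deletions, and 6 in the snf5 deletion against the swp82 deletion. Total-count scaling called 16 for the snf2 strain and 1 for the swp82 strain against the wild type, and 29 for the snf5 against the swp82 deletion. For the swp82 strain against the wild type, DESeq2 called 3 and the fit with the replicate block 8. The cause of these shifts was not tested. Over all genes, calls for that last comparison numbered 203, against 783 with the replicate block, 511 with DESeq2, 323 with total-count scaling and 131 in the fit of 2 groups. Fits of 2 groups also gave 2475 in place of 1612 in the snf2 deletion against the wild type, 225 in place of 726 between the snf5 and snf2 deletions, and 1314 in place of 2438 in the snf5 against the swp82 deletion. In the comparisons whose replicate numbers did not pair the libraries by the rule above, the lowest same-numbered correlations were -0.10 to 0.05 and the highest 0.40 to 0.62. By that rule the wild type and the snf5 deletion each paired with the swp82 deletion but not with each other, so the rule does not settle which libraries belong together. No member's call changed sign under the 20 alternatives, but some gained calls in a direction that the comparison otherwise lacked. For the swp82 strain against the wild type, with 0 calls, 1 member gained a higher and 8 a lower call. In the other comparisons these members were ATG5, ATG12, ATG15, ATG21 and ATG27. Low members limit the precision, above all ATG39, with 6 to 145 reads per library.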
